A study of Mus musculus with 110 samples.

Results

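Metabotropic glutamate receptors are G protein-coupled receptors for glutamate, the main excitatory transmitter of the brain. The 6 genes Grm2, Grm3, Grm4, Grm5, Grm7 and Grm8 were taken by their symbols from the 24056 genes counted in a mouse study of Huntington's disease, and they were followed in all 110 of its libraries. In mice of the R6/2 line, which carry a fragment of mutant human huntingtin, Grm3, Grm4 and Grm5 were lower than in NCAR mice in each of the 4 pulldown sets and each of the 3 tissue sets. Grm7 was higher in R6/2 than in NCAR mice in both neuronal pulldown sets, and it did not pass the test in either astrocyte pulldown set. In tissue, Grm7 was lower in the sets named n_ZFP_a_Rpl and n_ZFP_n_Rpl and did not pass in hSyn. The n_ZFP_n_Rpl tissue call did not hold without some single libraries. The R6/2 difference of Grm3 was larger in the neuronal pulldowns than in the astrocyte pulldowns, although cell type and set cannot be told apart. With a zinc-finger repressor (ZFP) in R6/2 mice, Grm4 and Grm5 were higher than with the control vector in 2 pulldown sets. The names of these sets begin with n_ZFP, and 33.8% (n_ZFP_a_Rpl) and 17.4% (n_ZFP_n_Rpl) of all genes tested differed there. No member passed the test in the sets named MG and hSyn, where at most 0.0782% of all genes tested did. The R6/2 call of Grm3 in the MG pulldown and the ZFP call of Grm4 in the n_ZFP_n_Rpl pulldown did not hold without some single libraries.

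The receptors fall into 3 groups by sequence and coupling. Group I, to which Grm5 belongs, couples through Gq proteins to phospholipase C and calcium release, and its receptors sit mainly on the receiving side of synapses, tethered to Homer and Shank scaffolds. Group II (Grm2 and Grm3) and group III (Grm4, Grm7, Grm8 and, in the retina, Grm6) couple through Gi/o proteins, which lower cyclic AMP, and many of these receptors act on nerve terminals as brakes on transmitter release. In the striatum, the brain region that Huntington's disease affects most, Grm5 is abundant in projection neurons, Grm4 is known from the terminals of projection neurons of the indirect pathway, Grm2 from the endings of cortical neurons, and Grm3 from astrocytes as well as from some neurons. Receptors of group II also bind the peptide N-acetylaspartylglutamate (NAAG).

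RNA was collected by RiboTag, in which ribosomes carrying an HA tag are immunoprecipitated (IP) from a chosen cell type, and in 3 of 4 sets also from the whole tissue extract (Input). Every sample is labelled with the R6/2 strain, and the descriptions divide them into NCAR, used here as the study's own name for the control genotype, and R6/2. Each genotype received an AAV for the ZFP, a transcriptional repressor aimed at mutant huntingtin, or a control AAV called Delta, which gives the conditions ND (NCAR with Delta), NZ (NCAR with ZFP), RD (R6/2 with Delta) and RZ (R6/2 with ZFP). Control animals therefore carried a vector too. The astrocyte IP sets were MG, with 4 libraries in each condition and no Input, and n_ZFP_a_Rpl, with 4, 4, 3 and 4 libraries for ND, NZ, RD and RZ in each fraction. The neuron IP sets were hSyn, with 5, 4, 3 and 4 libraries in each fraction, and n_ZFP_n_Rpl, with 4 in each condition and fraction. The vectors are described as specific to astrocytes or neurons, without a promoter, and the labels used here do not say in which cell type the ZFP of a set acted. They also give no tissue, age or sex, and do not say whether replicates are separate animals, so the p-values below measure the spread between these samples. Library totals ranged from 26.4 to 72.6 M counts. Levels are counts per M counts of a library (CPM, where M stands for mega) scaled by the TMM method within a set and fraction. Levels of different sets or fractions are therefore not on a common scale, and comparing them is only a description. Tests over several sets or fractions used joint scaling. Gene lengths were not used here, so levels were not compared between genes.

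The members lie on separate stretches of the mouse genome, apart from Grm7 and Grm8, which share a chromosome (build mm10, GRCm38). Grm2 spans chr9:106644534-106656109, Grm3 chr5:9485236-9725352, Grm4 chr17:27422387-27513826, Grm5 chr7:87583981-88135063, Grm7 chr6:110645349-111567230 and Grm8 chr6:27275121-28135146. RefSeq promoter windows of the same build were matched by symbol for 4 members, Grm2, Grm3, Grm7 and Grm8, with 7 windows in all. Grm4 and Grm5 were not matched. Each window is the 250 bases before a start that the table gives. Windows are shown for Grm2, Grm3 and Grm7, because these are the genes whose R6/2 differences were tested for group II and for the gene that rose. Each is written 5′ to 3′ along the gene's strand, and capitals mark the GC box, searched as GGGCGG and its reverse complement CCGCCC. The Grm2 window is chr9:106656110-106656359 on the minus strand, the Grm3 window chr5:9725353-9725602 on the minus strand, and the Grm7 window chr6:110645262-110645511 on the plus strand. The Grm7 window is the first of 2 overlapping ones in the table, and both end past the first base of the gene's span given above, so it lies partly inside the annotated gene.
Grm2: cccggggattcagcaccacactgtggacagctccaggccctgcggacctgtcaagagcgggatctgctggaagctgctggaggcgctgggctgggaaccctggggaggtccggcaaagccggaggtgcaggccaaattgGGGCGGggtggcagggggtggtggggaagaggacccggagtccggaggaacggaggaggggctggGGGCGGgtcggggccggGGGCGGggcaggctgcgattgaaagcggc
Grm3: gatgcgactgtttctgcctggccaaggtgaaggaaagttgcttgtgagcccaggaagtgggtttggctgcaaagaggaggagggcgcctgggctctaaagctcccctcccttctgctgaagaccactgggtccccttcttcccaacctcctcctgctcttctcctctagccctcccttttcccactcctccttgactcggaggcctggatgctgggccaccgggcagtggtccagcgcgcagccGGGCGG
Grm7: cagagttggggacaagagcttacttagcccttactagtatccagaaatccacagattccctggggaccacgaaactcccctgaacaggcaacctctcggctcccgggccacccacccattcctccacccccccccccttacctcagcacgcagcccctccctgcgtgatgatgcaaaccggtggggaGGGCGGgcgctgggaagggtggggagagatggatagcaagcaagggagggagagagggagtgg
The Grm2 window held 3 GC boxes and was 71.2% G and C, the Grm3 window 1 with 62.4%, and the Grm7 window 1 with 62.0%. Of the windows not shown, the other Grm7 window held 1 with 65.2%. The Grm8 windows were 68.4%, 54.4% and 43.6% G and C, and only the first of these held a GC box. Of all 32851 windows of the table, cut to the same length, 32.7% held at least 1 GC box, and their median G and C content was 52.4%. The cyclic AMP response element TGACGTCA, which reads the same on both strands, was in 1.55% of all windows and in none of the 7 member windows. These matches describe letters in the windows and say nothing about the binding of a factor.

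The labelled cell types were checked against marker genes. In n_ZFP_a_Rpl, all 15 astrocyte markers were higher in the IP than in the Input, with a median log2 difference of 1.84. The astrocyte IP also kept neuronal RNA: 11 of 12 pan-neuronal markers were higher in it than in the Input, with a median of 0.36. The 9 interneuron markers summed to 677 to 838 CPM in the ND libraries of this IP and 284 to 323 CPM in those of its Input. In the MG IP they summed to 991 to 1155 CPM in ND, against 459.8 to 576 CPM in hSyn and 430.1 to 511 CPM in n_ZFP_n_Rpl. By this list the astrocyte IPs stood above the neuron IPs, although the scales differ. In the neuron IPs all 12 pan-neuronal markers were higher than in the Input, and the astrocyte markers were lower in 9 of 15 in hSyn and 13 of 15 in n_ZFP_n_Rpl. Of all genes tested, 84.9% in n_ZFP_a_Rpl, 78.7% in hSyn and 83.3% in n_ZFP_n_Rpl passed in either direction. Astrocyte RNA was still present there, with 15 markers summing to 6822 to 9747 CPM in the ND libraries of the hSyn IP and 4084 to 5205 CPM in those of the n_ZFP_n_Rpl IP, against 23319.9 to 28338 CPM in the n_ZFP_a_Rpl IP. MG has no Input, and its ND libraries summed to 25365 to 31578 CPM. How much of a member's level in one IP came from the other cell type was not tested. In MG, NZ replicate 2 stood apart, with 42646 CPM of astrocyte markers and 6041 CPM of striatal projection neuron markers. In n_ZFP_n_Rpl, the 6 markers of cortical and thalamic excitatory neurons differed between libraries, and their sums are given beside Grm2. In bulk RNA of this kind, fewer cells of a type and less RNA per cell cannot be told apart.

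The levels of the members by library are described first. Grm3 was highest in the astrocyte IPs. In ND libraries it averaged 497 ± 42.8 CPM in MG and 372 ± 32.8 CPM in n_ZFP_a_Rpl (SD, n = 4 each), against 199.8 ± 8.11 CPM in hSyn (n = 5) and 193 ± 7.07 CPM in n_ZFP_n_Rpl (n = 4). The MG values of 448, 485, 552 and 502 CPM all lay above the n_ZFP_a_Rpl values of 362, 401, 394 and 330.1 CPM, and both lay above all ND libraries of the neuron IPs. The neuron IPs overlapped, with 202, 212, 200.3, 195 and 191 CPM in hSyn and 201, 185, 191 and 194 CPM in n_ZFP_n_Rpl.

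In a model over all 63 IP libraries, the ND level of Grm3 in the neuron IPs fell by 1.12 on the log2 scale against the astrocyte IPs (SE 0.077, 95% interval -1.28 to -0.97, adjusted p = 1.29e-18). In this comparison 69.5% of all genes tested passed, and 5 of 6 members did. Grm2, Grm4 and Grm8 were higher in the neuron IPs, by 1.08 ± 0.22 (adjusted p = 3.01e-05), 0.52 ± 0.090 (adjusted p = 1.11e-06) and 0.51 ± 0.11 (adjusted p = 4.77e-05). Grm7 was lower in them, at -0.33 ± 0.054 (adjusted p = 4.86e-07), and Grm5, the group I receptor, did not pass, at 0.084 ± 0.060 (adjusted p = 0.212). Cell type lies between sets in this comparison, so cell type and set cannot be told apart.

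Grm5 had ND means of 1141 ± 88.7 CPM in hSyn, 1012 ± 53.0 CPM in n_ZFP_a_Rpl, 991 ± 77.6 CPM in MG and 975 ± 95.6 CPM in n_ZFP_n_Rpl, and each range overlapped with the next in this order. Grm4 averaged 95.1 ± 14.3 CPM in n_ZFP_n_Rpl, 93.0 ± 4.37 CPM in hSyn, 78.0 ± 6.28 CPM in n_ZFP_a_Rpl and 55.5 ± 1.83 CPM in MG. Its neuron IPs overlapped, and hSyn lay above n_ZFP_a_Rpl and n_ZFP_a_Rpl above MG without overlap. Grm7, a presynaptic receptor of low affinity for glutamate, averaged 98.7 ± 6.54 CPM in MG, 93.8 ± 6.1 CPM in n_ZFP_a_Rpl, 77.4 ± 2.92 CPM in n_ZFP_n_Rpl and 75.3 ± 3.4 CPM in hSyn. For Grm7 the ranges of both astrocyte IPs overlapped, as did those of both neuron IPs. Grm8 averaged 24.996 ± 6.84 CPM in n_ZFP_n_Rpl, 15.3 ± 2.87 CPM in hSyn, 14.8 ± 2.34 CPM in n_ZFP_a_Rpl and 12.9 ± 0.913 CPM in MG. Each Grm8 range overlapped with the next in this order. Grm2 stayed between 1.2 and 2.73 CPM in the ND libraries of 3 IPs and reached 4.7 to 20.3 CPM in n_ZFP_n_Rpl. Of the family genes outside the list, Grm6 was below 0.1 CPM in every library.

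**Figure D1:**
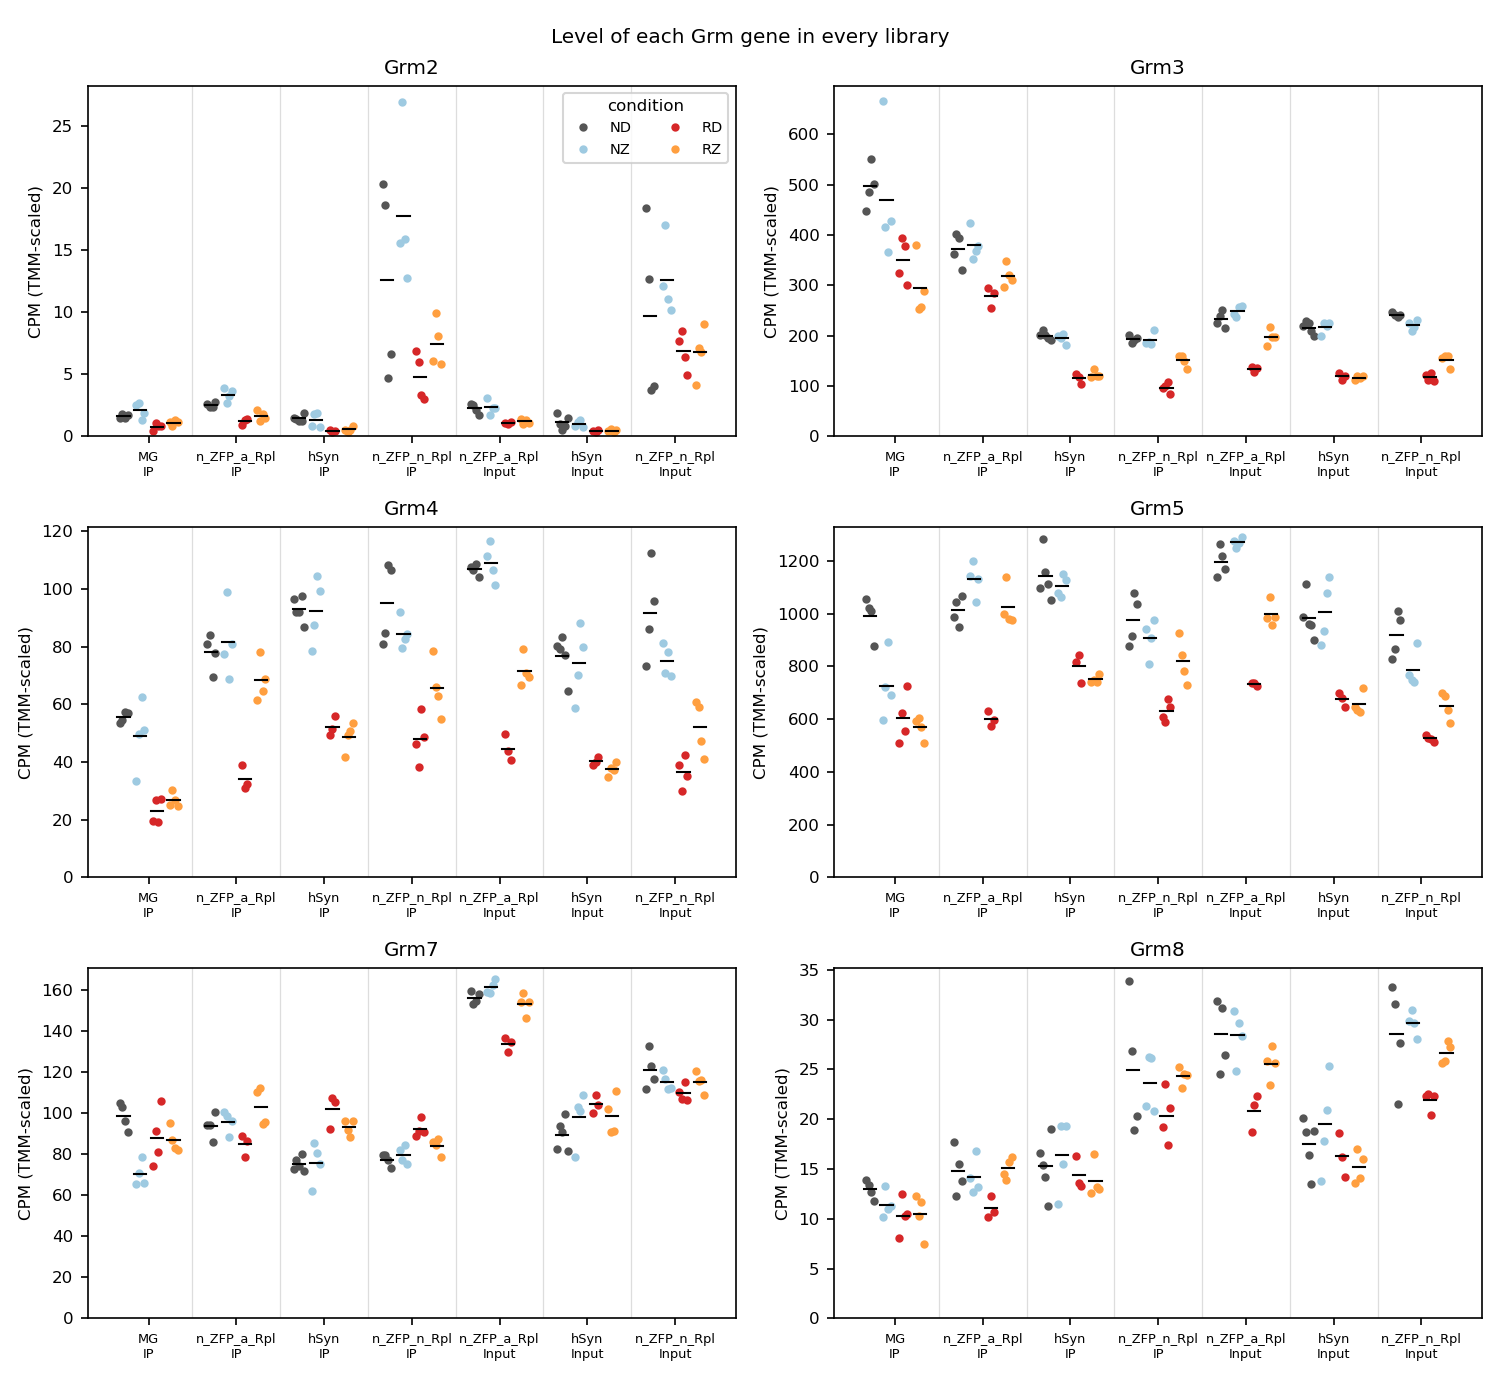
CPM of each member on a linear axis by set and fraction, 1 point per library coloured by condition (ND dark grey, NZ light blue, RD red, RZ orange), with the mean of a condition as a black line. Grm3 is highest in the astrocyte IPs, and Grm2 is highest in n_ZFP_n_Rpl.

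Within a set, the IP was compared with the Input over all 4 conditions to show which members the pulldown held more of than the tissue. In n_ZFP_a_Rpl, Grm3 was 0.95 ± 0.036 (log2, SE) higher in the astrocyte IP (95% interval 0.88 to 1.03, adjusted p = 1.15e-19). Its ND values were 362, 401, 394 and 330.1 CPM in the IP and 226, 239, 251 and 215 CPM in the Input. IP and Input were scaled apart for CPM, so these values are not on the scale of the test. The other members had smaller or negative differences. Grm2 stood at 0.53 ± 0.097 (adjusted p = 1.48e-05), Grm5 at 0.027 ± 0.025 (adjusted p = 0.324), Grm4 at -0.14 ± 0.047 (adjusted p = 0.00783), Grm7 at -0.49 ± 0.027 (adjusted p = 6.13e-16) and Grm8 at -0.71 ± 0.055 (adjusted p = 1.05e-12). The interval of Grm3 overlapped with that of no other member, although differences between genes were not tested. In this set 84.9% of all genes tested passed, so passing alone is common here, and 5 of 6 members did. Grm2 lost its call when ND libraries alone were used (0.34, adjusted p = 0.0734).

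In the neuron sets, 78.7% of genes passed in hSyn and 83.3% in n_ZFP_n_Rpl, with 4 and 3 of 6 members. Grm4 was higher in the IP in both, at 0.54 ± 0.049 (adjusted p = 2.46e-11) in hSyn and 0.45 ± 0.072 (adjusted p = 1.89e-06) in n_ZFP_n_Rpl, and Grm5 likewise at 0.40 ± 0.036 (adjusted p = 2.13e-11) and 0.44 ± 0.041 (adjusted p = 6.76e-11). In n_ZFP_n_Rpl the Grm4 difference did not pass in ND libraries alone (0.21, adjusted p = 0.246). Grm3 was 0.14 ± 0.029 (adjusted p = 5.53e-05) in hSyn and 0.0095 ± 0.033 (adjusted p = 0.797) in n_ZFP_n_Rpl. In ND libraries alone it was 0.042 (adjusted p = 0.476) in hSyn and -0.16 (adjusted p = 0.0129) in n_ZFP_n_Rpl, so the hSyn call was lost and the n_ZFP_n_Rpl sign turned. In CPM scaled within each fraction, the hSyn IP and Input means of Grm3 were 199.8 and 216 in ND, 195 and 217 in NZ. They were 115 and 119 in RD and 122 and 117 in RZ. In n_ZFP_n_Rpl the IP mean was the lower in each condition. The sign of these Grm3 values therefore depends on the scaling. Beside these values, 9 and 13 of 15 astrocyte markers were lower in the IP of hSyn and n_ZFP_n_Rpl.

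Grm7 was 0.022 ± 0.045 (adjusted p = 0.655) in hSyn and -0.26 ± 0.025 (adjusted p = 9.43e-11) in n_ZFP_n_Rpl, so it was lower in the n_ZFP_n_Rpl IP than in its Input. Grm8 did not pass in either neuron set, at 0.016 ± 0.087 (adjusted p = 0.869) and 0.026 ± 0.065 (adjusted p = 0.717). Grm2 was 0.47 ± 0.18 (adjusted p = 0.0177) in hSyn, where ND libraries alone gave 0.50 (adjusted p = 0.163), and 0.33 ± 0.22 (adjusted p = 0.166) in n_ZFP_n_Rpl. With IP and Input of the same number paired in n_ZFP_n_Rpl, the Grm2 difference was 0.33 with an adjusted p of 0.000975, which ends on the other side of the threshold.

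**Figure D2:**
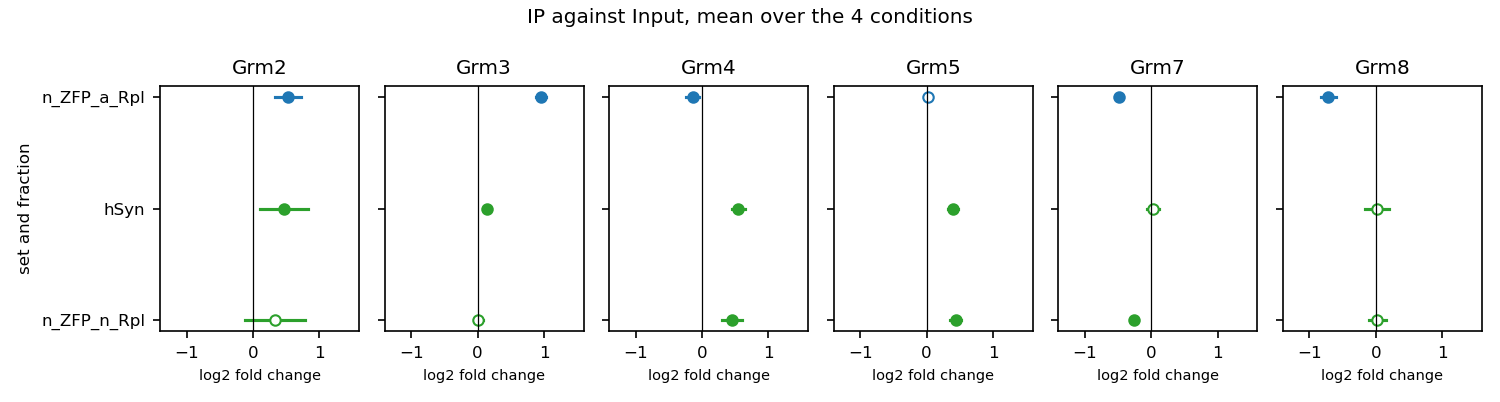
Log2 difference between IP and Input for each member in the 3 sets with Input, averaged over 4 conditions. Bars are 95% intervals, and filled points have an adjusted p under 0.05. Grm3 sits at 0.95 in the astrocyte set and at 0.14 and 0.0095 in the neuron sets.

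RD was compared with ND to ask how the members differ between R6/2 and NCAR mice when both carry the control vector. Many genes differed, so each count is read against its background. How many of all genes had compared libraries without overlap was not counted, so overlap here and below only describes the members. The share of all tested genes called lower was 16.2% in the MG IP, 24.7% in the n_ZFP_a_Rpl IP, 25.5% in the hSyn IP and 26.2% in the n_ZFP_n_Rpl IP, and 4, 5, 4 and 4 of 6 members were called lower there. In the Inputs the share was 24.7% in n_ZFP_a_Rpl, 21.6% in hSyn and 23.7% in n_ZFP_n_Rpl, with 6, 4 and 5 members lower. The share called higher was 17.4%, 20.6%, 25.4% and 25.2% in the IPs in the same order, with 0, 0, 1 and 1 members. It was 24.4%, 22.5% and 26.1% in the Inputs, with no member. The median log2 difference of the 6 members ran from -0.81 in the n_ZFP_n_Rpl IP to -0.59 in the n_ZFP_a_Rpl IP. TMM scaling holds the median of all genes near 0, and it was at most 0.035 away from 0 in each of the 7 comparisons, so it is no test of the members.

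**Figure D3:**
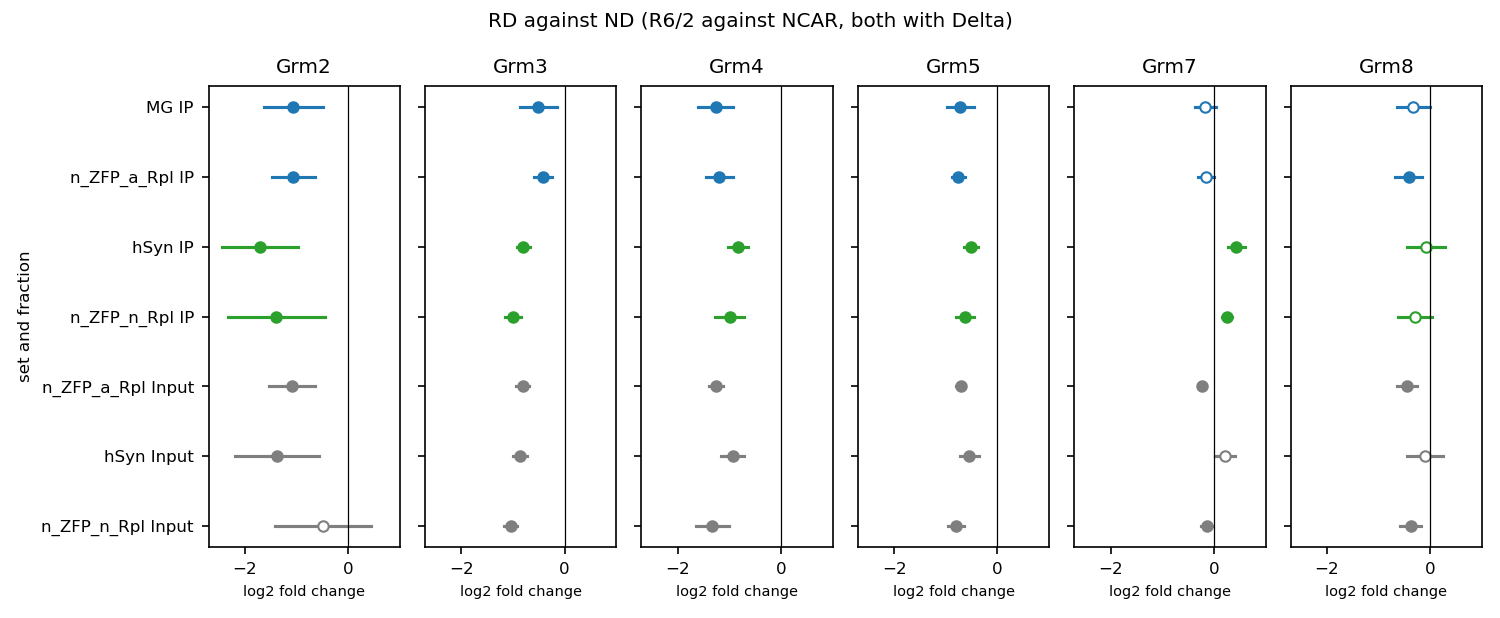
Log2 difference of RD from ND for each member in the 4 IPs and 3 Inputs, with 95% intervals as bars and filled points for an adjusted p under 0.05 (astrocyte IPs blue, neuron IPs green, Inputs grey). Grm3, Grm4 and Grm5 lie below 0 in all 7, and Grm7 lies above 0 in the 2 neuron IPs.

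Of group II, Grm3 was lower in R6/2 mice in every comparison, and the libraries of RD and ND did not overlap in any of the 7. In the hSyn IP its level was 124, 117 and 104 CPM in RD against 202, 212, 200.3, 195 and 191 CPM in ND, a difference of -0.80 ± 0.062 (adjusted p = 2.26e-08). In the n_ZFP_n_Rpl IP it was 95.9, 100.03, 108 and 83.2 against 201, 185, 191 and 194 CPM, or -0.99 ± 0.075 (adjusted p = 6.2e-08). Every RD library of the neuron IPs was below every ND library. In the astrocyte IPs the step was smaller. The n_ZFP_a_Rpl IP held 295, 254 and 285 CPM in RD and 362, 401, 394 and 330.1 CPM in ND, a difference of -0.42 ± 0.080 (adjusted p = 0.000565). The MG IP held 324, 394, 379 and 301 CPM in RD and 448, 485, 552 and 502 CPM in ND, or -0.51 ± 0.17 (adjusted p = 0.0298). The MG call did not hold without any one of ND replicates 2, 3 and 4 and RD replicates 1 and 4, where the adjusted p was 0.0518, 0.0805, 0.0576, 0.0641 and 0.0722. In the Inputs, Grm3 was lower, at -0.81 ± 0.060 (adjusted p = 3.79e-09) in n_ZFP_a_Rpl, -0.86 ± 0.062 (adjusted p = 1.98e-08) in hSyn and -1.04 ± 0.057 (adjusted p = 1.23e-09) in n_ZFP_n_Rpl.

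The R6/2 difference was compared between cell types, as the mean of both neuron IPs less that of both astrocyte IPs. For Grm3 it was -0.42 ± 0.11 (95% interval -0.65 to -0.19, adjusted p = 0.00578), so Grm3 was lowered more in the neuron IPs. Cell type lies between sets in this comparison as well, so cell type and set cannot be told apart. In this test 20.7% of all genes passed, and Grm3 and Grm7 were the members that did. Over all 67 alternative settings the Grm3 value ran from -0.51 to -0.39 and passed in 67. Markers moved beside it. The 15 astrocyte markers summed to 6822 to 9747 CPM in ND and 3324 to 3991 CPM in RD in the hSyn IP, with 14 called lower, and to 4084 to 5205 and 2150.4 to 2809 CPM in the n_ZFP_n_Rpl IP, with 11 lower and 1 higher. In the astrocyte IPs the same sum went from 23319.9 to 28338 to 18269 to 19629 CPM in n_ZFP_a_Rpl, with 7 lower and 1 higher, and from 25365 to 31578 to 16080.2 to 22103 CPM in MG, with 2 lower. Of all genes, 25.5%, 26.2%, 24.7% and 16.2% were called lower in these IPs in the order given, so the MG count was near the background. The part of these markers in the Grm3 result was not tested.

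Grm2, the other receptor of group II, was called lower in RD in the 4 IPs, from low levels. In MG it was 0.448, 1.08, 0.811 and 0.795 CPM in RD against 1.51, 1.79, 1.48 and 1.72 CPM in ND, a difference of -1.06 ± 0.27 (adjusted p = 0.00638). In n_ZFP_a_Rpl it was 0.886, 1.34 and 1.39 against 2.6, 2.33, 2.4 and 2.73 CPM (-1.06 ± 0.20 (adjusted p = 0.000424)), and in hSyn 0.539, 0.364 and 0.424 against 1.51, 1.36, 1.21, 1.2 and 1.91 CPM (-1.70 ± 0.35 (adjusted p = 0.000635)). RD lay below ND without overlap in these 3 IPs. The Inputs of n_ZFP_a_Rpl and hSyn gave -1.09 ± 0.21 (adjusted p = 0.000342) and -1.37 ± 0.39 (adjusted p = 0.00831).

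In n_ZFP_n_Rpl the ND libraries of Grm2 were split. Replicates 1 to 4 read 20.3, 18.6, 4.7 and 6.62 CPM in the IP and 18.4, 12.7, 3.73 and 4.04 CPM in the Input, so replicates 3 and 4 were low in both fractions, and RD overlapped with ND at 6.91, 5.99, 3.3 and 3.03 CPM in the IP and 7.68, 8.5, 6.4 and 4.96 CPM in the Input. The difference was -1.39 ± 0.44 (adjusted p = 0.0157) in the IP. It did not pass without ND replicate 1 (-1.05, adjusted p = 0.0628), without ND replicate 2 (-1.13, adjusted p = 0.0541), or with the RD and ND libraries fitted alone (-1.38, adjusted p = 0.0502). In the Input it was -0.49 ± 0.43 (adjusted p = 0.363). The 6 cortical and thalamic excitatory markers, led by the vesicular glutamate transporters Slc17a7 and Slc17a6, summed to 1245, 944, 349 and 540.1 CPM in the same ND libraries of the IP and to 895, 657, 253 and 384 CPM in the Input. Replicates 3 and 4 were again the low ones. With the log2 of this sum as a covariate, the Input difference was -0.61 (adjusted p = 0.00147). The sum was lower in the other sets, at 16.6 to 50.01 CPM in the ND libraries of the hSyn IP and 47.1 to 92.6 CPM in those of the n_ZFP_a_Rpl IP, as was Grm2. In RD the sum was 33.2 to 38.7 CPM in the hSyn IP and 29.4 to 68.0 CPM in the n_ZFP_a_Rpl IP. These sums overlapped with ND, and the Grm2 values of RD and ND did not. Beyond the covariate, chosen after seeing the data, the part of these markers in the Grm2 values was not tested.

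**Figure D4:**
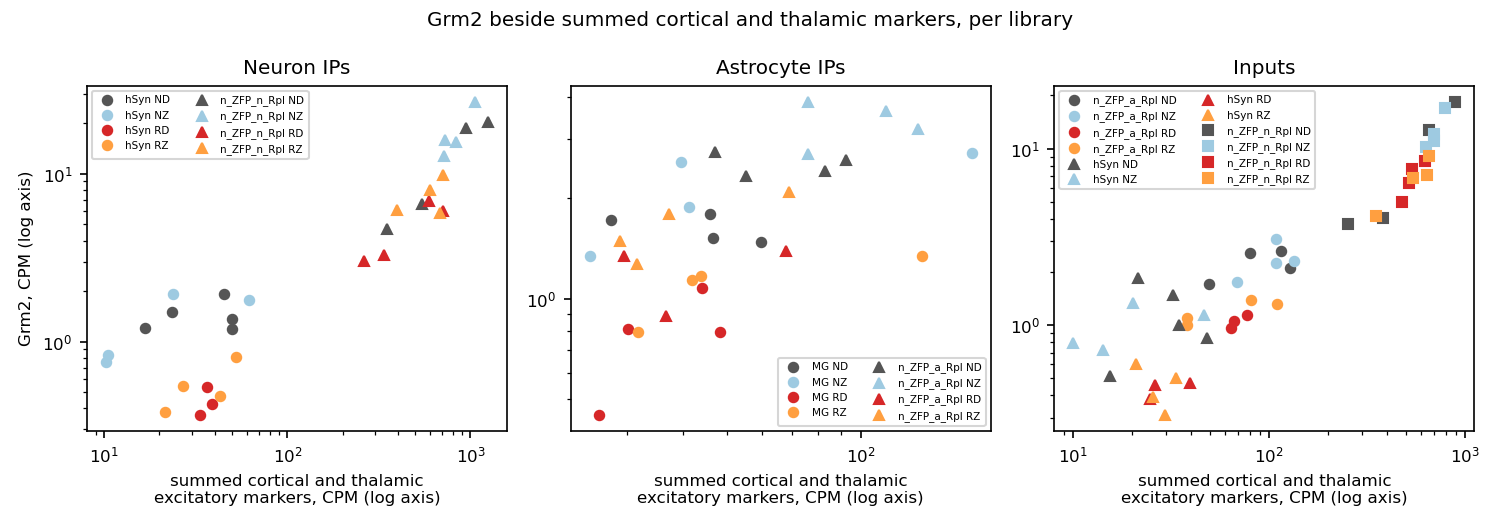
Grm2 in CPM against the summed CPM of the 6 cortical and thalamic excitatory markers, 1 point per library on log axes, for all 110 libraries in panels for neuron IPs, astrocyte IPs and Inputs. The n_ZFP_n_Rpl libraries lie at the upper right of their panels, and ND replicates 3 and 4 of that set lie below ND replicates 1 and 2 on both axes.

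Of group I, Grm5 was lower in RD in all 7 comparisons, without overlap between RD and ND libraries. The n_ZFP_a_Rpl IP held 631, 572 and 598 CPM in RD and 987, 1044, 951 and 1067 CPM in ND, a difference of -0.75 ± 0.063 (adjusted p = 1.91e-07). In MG the values were 508, 623, 555 and 727 CPM against 1055, 1019.6, 1009.9 and 878 CPM (-0.72 ± 0.12 (adjusted p = 0.000319)). In the hSyn IP they were 818, 843 and 738 CPM against 1097, 1283, 1159, 1114 and 1050.5 CPM (-0.51 ± 0.061 (adjusted p = 3e-06)), and in the n_ZFP_n_Rpl IP 609, 587, 678 and 644 against 877, 913, 1077 and 1035 CPM (-0.63 ± 0.084 (adjusted p = 1.57e-05)). The highest RD library was below the lowest ND library in each. The Inputs gave -0.71 ± 0.041 (adjusted p = 9.47e-11) in n_ZFP_a_Rpl, -0.54 ± 0.086 (adjusted p = 8e-05) in hSyn and -0.80 ± 0.074 (adjusted p = 2.3e-07) in n_ZFP_n_Rpl. The difference did not pass the test between neuron and astrocyte IPs, at 0.17 ± 0.090 (95% interval -0.0090 to 0.35, adjusted p = 0.177).

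Of group III, Grm4 was lower in RD in all 7 comparisons, and RD and ND libraries did not overlap in any. In MG it was 19.4, 26.8, 19.2 and 27.2 CPM in RD against 53.4, 54.5, 57.2 and 56.8 CPM in ND, a difference of -1.26 ± 0.16 (adjusted p = 2.23e-05). In the n_ZFP_a_Rpl IP it was 39.0, 31.0 and 32.5 against 80.8, 84.0, 69.3 and 78.0 CPM (-1.19 ± 0.12 (adjusted p = 2.22e-06)). In the neuron IPs the ND level was higher: hSyn held 49.3, 51.5 and 55.9 CPM in RD and 96.5, 92.1, 92.0, 97.7 and 86.6 CPM in ND (-0.83 ± 0.090 (adjusted p = 9.49e-07)), and n_ZFP_n_Rpl 46.3, 38.2, 58.4 and 48.7 and 80.8, 84.8, 108 and 107 CPM (-0.99 ± 0.13 (adjusted p = 1.95e-05)). The Inputs gave -1.26 ± 0.067 (adjusted p = 4.73e-11), -0.93 ± 0.11 (adjusted p = 3.02e-06) and -1.33 ± 0.15 (adjusted p = 3.74e-06) in n_ZFP_a_Rpl, hSyn and n_ZFP_n_Rpl. Between cell types the difference was 0.33 ± 0.13 (95% interval 0.055 to 0.60, adjusted p = 0.0786), which did not pass.

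Grm7 took another direction in the neuron IPs. In the hSyn IP the RD libraries read 92.5, 108 and 105 CPM and the ND libraries 72.7, 77.4, 74.4, 80.01 and 71.8 CPM, a rise of 0.44 ± 0.080 (adjusted p = 0.000224). In the n_ZFP_n_Rpl IP they read 88.7, 91.2, 98.0 and 90.6 and 79.6, 79.4, 77.3 and 73.3 CPM, a rise of 0.25 ± 0.048 (adjusted p = 0.000462). All RD libraries lay above all ND libraries in both. In the astrocyte IPs the ranges overlapped, at 74.0, 91.1, 81.0 and 106 against 105, 103, 96.3 and 90.6 CPM in MG (-0.17 ± 0.097 (adjusted p = 0.206)) and 89.0, 78.8 and 86.4 against 94.4, 94.4, 85.8 and 101 CPM in n_ZFP_a_Rpl (-0.15 ± 0.072 (adjusted p = 0.111)). MG passed without RD replicate 4 alone, the highest RD library (-0.28, adjusted p = 0.0234). The test of neuron less astrocyte IPs gave 0.51 ± 0.080 (95% interval 0.35 to 0.67, adjusted p = 5.24e-06), and it passed in 67 of 67 alternative settings with values from 0.44 to 0.56. Cell type and set cannot be told apart in it.

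The Inputs of Grm7 did not follow 1 direction. It was lower in the n_ZFP_a_Rpl Input, at 137, 129.9 and 135 CPM in RD and 159, 153, 155 and 158 CPM in ND (-0.23 ± 0.035 (adjusted p = 2.92e-05)), and in the n_ZFP_n_Rpl Input, at 110.3, 107, 115 and 106 and 112, 133, 123 and 116 CPM with overlap (-0.14 ± 0.051 (adjusted p = 0.0291)). The latter call did not hold without ND replicate 2 or 3 or RD replicate 2 or 4, with adjusted p values of 0.0958, 0.0516, 0.0753 and 0.0718, nor with RD and ND fitted alone (0.0502). In the hSyn Input it was 99.97, 109 and 104 CPM in RD and 82.4, 93.8, 90.9, 99.5 and 81.4 CPM in ND, or 0.22 ± 0.094 (adjusted p = 0.0689). That value passed without ND replicate 5 (0.0408), without NZ replicate 1 (0.0217) and with RD and ND fitted alone (0.0235).

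Grm8, a receptor of high affinity for glutamate on nerve terminals, was called in 3 of 7 comparisons. It was lower in the n_ZFP_a_Rpl IP, at 10.2, 12.3 and 10.7 CPM in RD and 17.7, 12.3, 15.5 and 13.8 CPM in ND (-0.42 ± 0.12 (adjusted p = 0.011)). That call did not hold without RD replicate 1 (-0.36, adjusted p = 0.0541). It was also lower in the Inputs of n_ZFP_a_Rpl (-0.45 ± 0.095 (adjusted p = 0.000744)) and n_ZFP_n_Rpl (-0.38 ± 0.095 (adjusted p = 0.00327)). The other values were -0.33 ± 0.15 (adjusted p = 0.0992) in MG, -0.087 ± 0.17 (adjusted p = 0.695) in the hSyn IP, -0.10 ± 0.16 (adjusted p = 0.651) in the hSyn Input and -0.30 ± 0.15 (adjusted p = 0.117) in the n_ZFP_n_Rpl IP. MG passed without RD replicate 2 (adjusted p = 0.0318), without RZ replicate 4 (0.0433) and with RD and ND fitted alone (0.0414), and the n_ZFP_n_Rpl IP passed without ND replicate 3 (0.0287). ND and RD libraries were apart in the n_ZFP_a_Rpl Input and overlapped in the other 6 comparisons.

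Markers of striatal projection neurons, such as Drd1, Drd2 and Adora2a, moved beside these differences. Their 15 genes summed to 11021 to 11545 CPM in ND and 3035 to 4242 CPM in RD in MG, and to 11119 to 13015 and 2988 to 3998 CPM in the n_ZFP_a_Rpl IP. In the neuron IPs the sums were 17446 to 20169 and 6789.7 to 6831 CPM in hSyn and 11188 to 16964 and 4104 to 5331 CPM in n_ZFP_n_Rpl. In each IP 14 of the 15 were called lower. Markers of other cell types moved as well. The 9 interneuron markers summed to 991 to 1155 CPM in ND and 462 to 599.8 CPM in RD in MG, 677 to 838 and 399 to 476 CPM in the n_ZFP_a_Rpl IP, 459.8 to 576 and 197 to 253 CPM in the hSyn IP, and 430.1 to 511 and 206 to 223 CPM in the n_ZFP_n_Rpl IP, with 5, 8, 9 and 8 called lower. Of 6 oligodendrocyte precursor markers 5, 2, 4 and 2 were lower, and of 8 microglia markers 2, 0, 7 and 4, in the same order. Of 8 oligodendrocyte markers 0, 3, 4 and 5 were higher. Of all genes tested, 16.2%, 24.7%, 25.5% and 26.2% were called lower and 17.4%, 20.6%, 25.4% and 25.2% higher in the same order. The precursor counts in n_ZFP_a_Rpl and n_ZFP_n_Rpl and the microglia count in MG were near these shares, and the counts of 0 were below them. The part of these markers in the values of the members, among them Grm4 and Grm5, which striatal projection neurons are known to express, was not tested.

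RZ was compared with RD to ask how the members differ in R6/2 mice when the ZFP is present. This comparison and RD against ND use the same RD libraries, so their values are not independent. Where RZ libraries are placed beside RD and ND below, this is a description, and a return toward ND was not tested. In n_ZFP_a_Rpl, 33.8% of all genes differed in the IP and 16.1% in the Input, and 4 and 5 of 6 members were called, all higher in RZ. In n_ZFP_n_Rpl, 17.4% differed in the IP and 3.32% in the Input, with 3 and 2 members called, all higher. In MG 0.0782% differed, in the hSyn IP 0.0391% and in the hSyn Input 0%, and no member was called. These shares rest on few calls: in MG edgeR called 12 genes, 2043 without RZ replicate 1 and 5 without RD replicate 2 or 3, and DESeq2 called 356. In the hSyn IP edgeR called 6, from 0 without RD replicate 1 or 3 or RZ replicate 2 to 14 without NZ replicate 1, and DESeq2 called 25. No member was called in these sets in any alternative run. By edgeR's quasi-likelihood test 628 genes had an unadjusted p under 0.05 in the hSyn Input, and DESeq2 called 5 at its adjusted threshold.

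**Figure D5:**
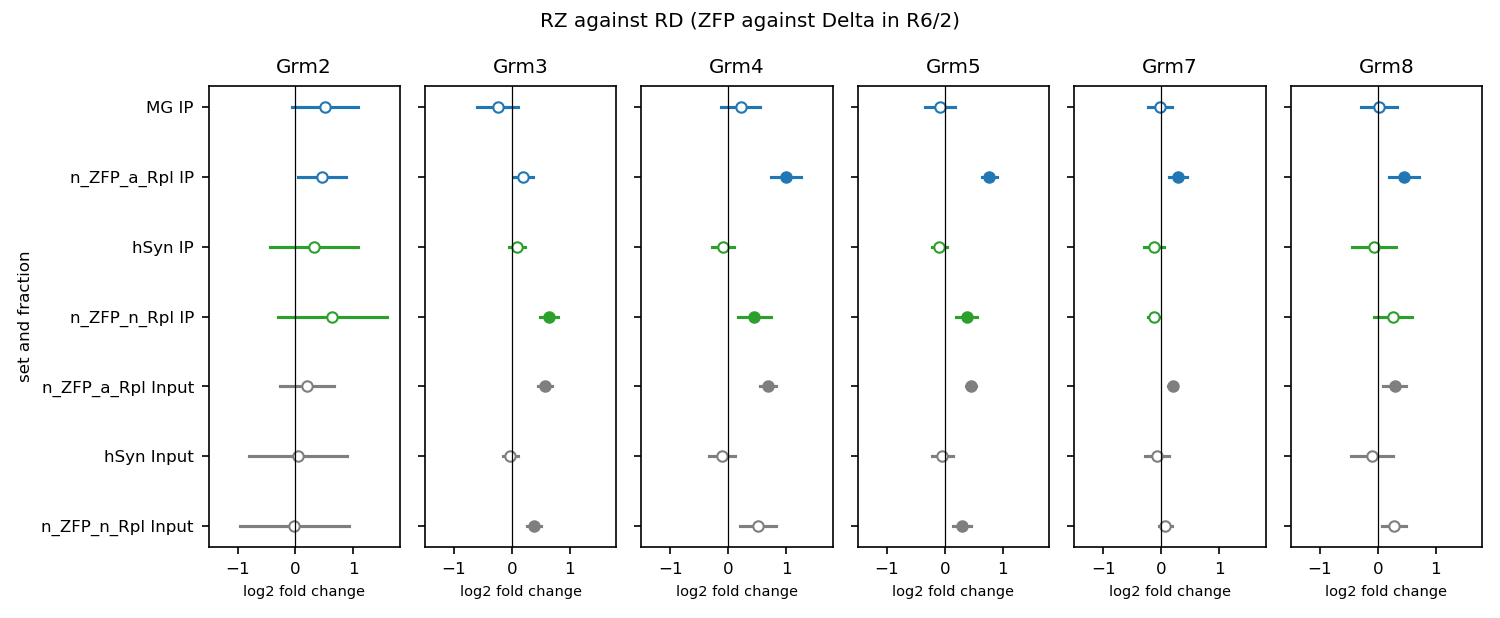
Log2 difference of RZ from RD for each member in the 4 IPs and 3 Inputs, with 95% intervals as bars and filled points for an adjusted p under 0.05 (astrocyte IPs blue, neuron IPs green, Inputs grey). Filled points occur in n_ZFP_a_Rpl and n_ZFP_n_Rpl, and none in MG or hSyn.

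Grm4 was higher by 1.00 ± 0.12 (adjusted p = 2.04e-05) in the n_ZFP_a_Rpl IP, where RZ libraries read 61.6, 78.1, 64.5 and 68.9 CPM, above RD at 39.0, 31.0 and 32.5 CPM and overlapping with ND. The Input gave 0.68 ± 0.067 (adjusted p = 9.57e-07). The RZ libraries of the n_ZFP_n_Rpl IP read 78.3, 65.9, 63.0 and 54.8 CPM and overlapped with RD, and the difference was 0.45 ± 0.13 (adjusted p = 0.0281). It did not pass without RD replicate 1, 2 or 4 or RZ replicate 1 or 2, where the adjusted p was 0.065, 0.0819, 0.0561, 0.0938 and 0.0625. It also failed with RD and RZ fitted alone (0.0551). The n_ZFP_n_Rpl Input gave 0.51 ± 0.15 (adjusted p = 0.0765), which passed with DESeq2 (adjusted p = 0.00936), without RZ replicate 4 (0.0323) or ND replicate 3 (0.0499).

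Grm5 was called higher in both fractions of both n_ZFP sets. In the n_ZFP_a_Rpl IP the RZ libraries read 999, 1139, 981 and 975 CPM, all above RD and overlapping with ND, for a difference of 0.77 ± 0.063 (adjusted p = 3.75e-07). For the n_ZFP_n_Rpl IP they read 926, 841, 780.4 and 729 CPM, again above every RD library (0.38 ± 0.084 (adjusted p = 0.00586)). The Inputs gave 0.44 ± 0.041 (adjusted p = 3.14e-07) and 0.30 ± 0.073 (adjusted p = 0.0304). The latter call did not hold without any one of the 4 RD libraries or of RZ replicates 1, 2 and 3, with adjusted p values from 0.0555 to 0.124. In MG and the hSyn IP Grm5 stood at -0.085 ± 0.12 (adjusted p = 0.746) and -0.092 ± 0.063 (adjusted p = 0.81).

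For Grm3 the sets differed in their calls. The RZ libraries of the n_ZFP_n_Rpl IP read 160.4, 159, 149 and 135 CPM, above every RD library and below every ND library, a difference of 0.64 ± 0.075 (adjusted p = 5.01e-05). The n_ZFP_n_Rpl Input gave 0.38 ± 0.057 (adjusted p = 0.00147) and the n_ZFP_a_Rpl Input 0.57 ± 0.060 (adjusted p = 2.1e-06). In the n_ZFP_a_Rpl IP, the astrocyte pulldown, RZ libraries read 297, 348, 321 and 309.8 CPM against 295, 254 and 285 CPM in RD. They did not overlap, but the difference of 0.20 ± 0.080 (adjusted p = 0.0668) did not pass. It passed without ND replicate 4 (adjusted p = 0.045), without NZ replicate 1 (0.0487) and with RD and RZ fitted alone (0.048). In MG, RZ libraries read 379, 254, 257 and 288 CPM (-0.25 ± 0.17 (adjusted p = 0.449)), and in the hSyn IP 117, 133, 119 and 119.9 CPM (0.090 ± 0.063 (adjusted p = 0.815)). Whether the Grm3 difference of one set exceeded that of another was not tested for the ZFP.

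Grm7 was higher in RZ in n_ZFP_a_Rpl, at 111, 112, 94.6 and 95.6 CPM in the IP (0.28 ± 0.072 (adjusted p = 0.00648)) and with 0.20 ± 0.035 (adjusted p = 0.000507) in the Input, and RZ and RD did not overlap in either. RZ libraries of the n_ZFP_n_Rpl IP, where RD was above ND, read 86.1, 84.3, 87.2 and 78.8 CPM and lay below RD (-0.13 ± 0.048 (adjusted p = 0.0729)). That difference did not pass with edgeR's test as fitted here and passed with DESeq2 (adjusted p = 0.0447). Grm8 was higher in RZ in the n_ZFP_a_Rpl IP at 14.5, 13.9, 15.8 and 16.2 CPM (0.45 ± 0.12 (adjusted p = 0.0104)), a call that did not hold without RD replicate 1 (0.0518). Its Input difference was 0.30 ± 0.095 (adjusted p = 0.0423). That did not hold without RD replicate 1 or 2, NZ replicate 4, or RZ replicate 1, 3 or 4, with adjusted p values from 0.0506 to 0.17. In n_ZFP_n_Rpl Grm8 gave 0.26 ± 0.15 (adjusted p = 0.264) in the IP and 0.28 ± 0.095 (adjusted p = 0.126) in the Input, and the Input passed without ND replicate 3 (0.0157) or with RD and RZ fitted alone (0.0145). Grm2 did not pass in any set, with 0.46 ± 0.20 (adjusted p = 0.0866) in the n_ZFP_a_Rpl IP and 0.64 ± 0.44 (adjusted p = 0.346) in the n_ZFP_n_Rpl IP. The former passed without RZ replicate 2 (0.55, adjusted p = 0.0474).

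Markers moved here as well. Striatal projection neuron markers summed to 8317 to 9553 CPM in RZ and 2988 to 3998 CPM in RD in the n_ZFP_a_Rpl IP, with all 15 called higher, and to 6159 to 9784 and 4104 to 5331 CPM in the n_ZFP_n_Rpl IP, with 11 higher. In MG and hSyn none passed. Astrocyte markers summed to 14949 to 16217 CPM in RZ and 18269 to 19629 CPM in RD in the n_ZFP_a_Rpl IP, with 14 of 15 lower, and to 2629 to 3864 and 2150.4 to 2809 CPM in the n_ZFP_n_Rpl IP, with 2 higher. Interneuron markers summed to 641 to 681 CPM in RZ and 399 to 476 CPM in RD in the n_ZFP_a_Rpl IP, with 4 of 9 higher, and to 329 to 378 and 206 to 223 CPM in the n_ZFP_n_Rpl IP, with 7 higher. Of all genes, 33.8% and 17.4% were called in either direction in these IPs. The interneuron count in n_ZFP_a_Rpl and the astrocyte count in n_ZFP_n_Rpl were near these shares. The part of these markers in the member values was not tested.

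NZ was compared with ND in the IPs to show what accompanies the ZFP without the R6/2 transgene. In MG 7.05% of all genes differed, and 2 members, Grm5 and Grm7, were lower, at -0.45 ± 0.12 (adjusted p = 0.0406) and -0.49 ± 0.097 (adjusted p = 0.0215). Their NZ libraries read 597, 721, 894 and 691 CPM for Grm5 and 65.6, 70.8, 78.9 and 66.2 CPM for Grm7, and the Grm7 groups did not overlap. The Grm5 call did not hold without any one of 10 of the 16 libraries, NZ replicate 2 among them (adjusted p = 0.0516), nor the Grm7 call without any one of ND replicates 1 and 2 and NZ replicates 3 and 5 (adjusted p from 0.0611 to 0.081). The 1081 genes behind the share were 26, 19, 127 and 407 without ND replicate 1, 2, 3 or 4, 32 and 50 without NZ replicate 3 or 5 and 692 without RZ replicate 3. They were 2057 without NZ replicate 2, 2069 without RZ replicate 1 and 2219 with DESeq2. In the other IPs 2.07% of genes differed in n_ZFP_a_Rpl, 0.0261% in hSyn and 7.36% in n_ZFP_n_Rpl, and no member passed. Striatal projection neuron markers summed to 6041 to 10517 CPM in NZ and 11021 to 11545 CPM in ND in MG, without overlap. The sums were 8566 to 11691 and 11188 to 16964 CPM in the n_ZFP_n_Rpl IP, with overlap. They also overlapped in the n_ZFP_a_Rpl and hSyn IPs. The part of these markers in the member values was not tested.

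An interaction term tested whether the ZFP difference depended on the genotype, as RZ less RD minus NZ less ND. In the n_ZFP_a_Rpl IP 16.5% of genes passed and 3 members did, Grm4 at 0.94 ± 0.16 (adjusted p = 0.00123), Grm5 at 0.61 ± 0.085 (adjusted p = 0.000232) and Grm8 at 0.51 ± 0.16 (adjusted p = 0.0473). Grm8 lost its call in 11 of the 15 fits that left out 1 library, with RLE factors (adjusted p = 0.0519) and with no filter on low counts (0.0531). Grm3 did not pass there, at 0.16 ± 0.11 (adjusted p = 0.337). Among genes of the n_ZFP_n_Rpl IP, 13.1% passed, with Grm3 at 0.65 ± 0.10 (adjusted p = 0.00117), Grm5 at 0.48 ± 0.12 (adjusted p = 0.0146) and Grm4 at 0.62 ± 0.18 (adjusted p = 0.0382). Grm4 lost its call there in 11 of 16 fits that left out 1 library and with no filter (0.0522). In MG and the hSyn IP 0% of genes passed, and so no member did. There, edgeR gave 1143 and 646 genes with an unadjusted p under 0.05, and DESeq2 called 52 and 6.

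Other genes of the pathway were taken from lists. Of 18 genes that couple or anchor group I receptors, RD against ND gave 1 higher and 8 lower in MG, 1 higher and 10 lower in the n_ZFP_a_Rpl IP, 5 higher and 9 lower in the hSyn IP and 4 higher and 10 lower in the n_ZFP_n_Rpl IP, with medians of -0.33, -0.39, -0.27 and -0.45. Of all genes tested, 16.2%, 24.7%, 25.5% and 26.2% were called lower and 17.4%, 20.6%, 25.4% and 25.2% higher in the 4 IPs in that order, so the counts lower lay above these shares and the counts higher below or near them. Rgs4, a regulator that shortens Gq and Gi signals, fell in all 4 IPs, with log2 differences of -1.81 (adjusted p = 1.68e-07) in MG, -1.98 (adjusted p = 3.93e-09) in n_ZFP_a_Rpl, -1.90 (adjusted p = 6.13e-10) in hSyn and -1.88 (adjusted p = 2.64e-08) in n_ZFP_n_Rpl. Itpr1, the calcium channel opened by the product of phospholipase C, was next in 3 IPs, at -1.27 (adjusted p = 2.88e-07), -1.34 (adjusted p = 1.02e-09) and -1.47 (adjusted p = 2.88e-09), and the scaffold Shank3 in MG, at -1.38 (adjusted p = 5.44e-07). The genes that rose most were the G protein subunit Gna11, at 0.16 (adjusted p = 0.0394) in MG and 0.27 (adjusted p = 0.000102) in n_ZFP_n_Rpl, Cyth2, at 0.16 (adjusted p = 0.0143) in n_ZFP_a_Rpl and 0.32 (adjusted p = 3.2e-05) in hSyn, the scaffold Homer2, at 0.36 (adjusted p = 0.0107) in hSyn, and Siah1a, a ubiquitin ligase, at 0.28 (adjusted p = 0.0099) in n_ZFP_n_Rpl.

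Of 18 genes that couple, anchor or bind group II and III receptors, RD against ND gave 4 higher and 6 lower in MG, 2 higher and 10 lower in the n_ZFP_a_Rpl IP, 8 higher and 6 lower in the hSyn IP and 5 higher and 7 lower in the n_ZFP_n_Rpl IP, with medians of -0.14, -0.18, 0.041 and -0.10. Against the shares of all genes, 17.4%, 20.6%, 25.4% and 25.2% higher and 16.2%, 24.7%, 25.5% and 26.2% lower, the counts higher in MG and n_ZFP_n_Rpl and the count lower in hSyn were near the background. Adcy5, the main adenylyl cyclase of striatal projection neurons and also among their markers here, was lower in the 4 IPs, at -1.87 (adjusted p = 1.46e-06), -1.90 (adjusted p = 1.53e-08), -1.30 (adjusted p = 1.53e-09) and -1.42 (adjusted p = 3.59e-06). Elfn1, a postsynaptic protein that binds group III receptors across the synapse, was lower at -0.89 (adjusted p = 0.000503), -1.30 (adjusted p = 0.000392), -1.31 (adjusted p = 3.09e-06) and -0.98 (adjusted p = 3.05e-05). Inhibitory G protein subunits were among those that rose, Gnai1 at 0.42 (adjusted p = 0.00652) in MG and 0.53 (adjusted p = 2.12e-06) in hSyn, Gnai2 at 0.33 (adjusted p = 4.7e-05) in n_ZFP_a_Rpl and 0.78 (adjusted p = 1.24e-07) in n_ZFP_n_Rpl, and Gnai3 at 0.39 (adjusted p = 8.43e-07) in n_ZFP_a_Rpl. Gng3 rose in both neuron IPs, at 1.19 (adjusted p = 1.28e-08) and 0.53 (adjusted p = 0.00653), and the potassium channel subunit Kcnj3 in MG, at 0.47 (adjusted p = 0.00665).

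Of 12 genes for the supply and removal of glutamate and NAAG, RD against ND gave 0 higher and 3 lower in MG, 1 higher and 4 lower in the n_ZFP_a_Rpl IP, 0 higher and 7 lower in the hSyn IP and 2 higher and 5 lower in the n_ZFP_n_Rpl IP, with medians of -0.15, -0.43, -0.33 and -0.40. The counts lower in MG and the n_ZFP_a_Rpl IP were near the 16.2% and 24.7% of all genes called lower there, those of hSyn and n_ZFP_n_Rpl stood against 25.5% and 26.2%, and the counts higher were below the background. Slc1a2, the main glutamate uptake carrier of astrocytes and one of their markers here, was lower at -0.82 (adjusted p = 0.00721), -0.63 (adjusted p = 0.000134), -1.10 (adjusted p = 6.18e-06) and -1.05 (adjusted p = 1.88e-05). Slc17a8, a vesicular glutamate transporter, was lower at -1.09 (adjusted p = 0.000454), -0.67 (adjusted p = 5.68e-05), -1.38 (adjusted p = 1.58e-05) and -1.49 (adjusted p = 1.04e-06). In the n_ZFP_n_Rpl IP, Folh1, an enzyme that splits NAAG, and Rimklb, an enzyme that makes it, were higher, at 0.70 (adjusted p = 0.024) and 0.52 (adjusted p = 0.0037).

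With the ZFP, RZ against RD gave 9 higher and 0 lower among the group I genes in the n_ZFP_a_Rpl IP and 4 higher and 0 lower in the n_ZFP_n_Rpl IP. Among the group II and III genes it gave 8 higher and 2 lower and 4 higher and 0 lower, and among the glutamate and NAAG genes 2 higher and 4 lower and 2 higher and 0 lower. Of all genes, 33.8% and 17.4% were called in either direction in these IPs, and the counts in n_ZFP_n_Rpl were near that share. In the MG and hSyn IPs no gene of the 3 lists was called. In n_ZFP_a_Rpl the differences were 1.20 (adjusted p = 5e-07) for Rgs4, 1.46 (adjusted p = 2.91e-07) for Adcy5, 1.00 (adjusted p = 5.31e-06) for Itpr1, 0.93 (adjusted p = 0.00575) for Elfn1 and 0.86 (adjusted p = 1e-05) for Slc17a8. In n_ZFP_n_Rpl they were 0.48 (adjusted p = 0.0139), 0.61 (adjusted p = 0.0141), 0.40 (adjusted p = 0.00182), 1.11 (adjusted p = 9.72e-05) and 0.91 (adjusted p = 0.000831) for the same genes in that order. Slc1a2 was -0.30 (adjusted p = 0.032) in the n_ZFP_a_Rpl IP and 0.50 (adjusted p = 0.0232) in the n_ZFP_n_Rpl IP.

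The likeness of each member to other genes was described by the Pearson correlation of mean log2 CPM over the 28 groups of set, fraction and condition, among 10665 genes. Groups share sets and depth, so these values are a description without a test. The 3 nearest genes of Grm4 were Adora2a (r = 0.98), Rasd2 (r = 0.98) and Klf16 (r = 0.98), of which Adora2a encodes the adenosine receptor that marks projection neurons of the indirect pathway. Those of Grm5 were Cacna2d3 (r = 0.96), Kcnab1 (r = 0.96) and Gpr155 (r = 0.95). Grm4 and Grm5 correlated with each other at 0.88. The nearest genes of Grm3 were Wnt7a (r = 0.98), Amigo2 (r = 0.97) and Sec14l2 (r = 0.96), and those of Grm2 were Tmem178 (r = 0.99), Rtn4r (r = 0.98) and Nptx1 (r = 0.98). Grm8 was nearest to Slc16a7 (r = 0.96), Stk19 (r = 0.95) and Entpd7 (r = 0.94). Grm7 had no neighbour as close, with Brca2 (r = 0.83), Rapgef6 (r = 0.82) and Ncapd3 (r = 0.81), and its correlations with the other 5 members ran from -0.18 with Grm3 to 0.39 with Grm8.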

How the data were processed

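RNA was sequenced from 63 IP and 47 Input libraries. The deposited table holds counts of reads per gene, made by the authors with STAR and HTSeq on build mm10, per the submitters' processing notes; the kit was TruSeq per the labels' protocols. The sources used here do not name versions, settings or the strand setting of the counting step, so reads of overlapping or antisense genes may be mixed. Of 24060 gene rows, 4 with a repeated symbol were left out. No 2 libraries were identical.

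Counts were tested with edgeR 4.0.16 in R 4.3.3 (robust quasi-likelihood fit, filterByExpr with a minimum count of 10 and a minimum total of 15, TMM factors), with 1 model of 4 conditions for each set and fraction, 1 of 8 groups for IP against Input in a set, and 1 of 16 groups over all IPs. All 6 members passed the filter in every fit. P-values were adjusted by Benjamini-Hochberg over all genes tested, and a gene is called at an adjusted p under 0.05. The ± after a log2 difference is its SE, and intervals are 95%. The tests were checked on simulated counts first. Alternatives were DESeq2 1.42.0, RLE factors, no filter, only the groups compared, the replicate number as a block, ND libraries alone for IP against Input, leaving out each library, and the cortical marker covariate, which was chosen after seeing the data.

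IP and Input libraries of the same number deviated together in n_ZFP_n_Rpl (16 pairs, r from 0.367 to 0.595) and n_ZFP_a_Rpl (15 pairs, r from 0.296 to 0.5). In hSyn the 14 pairs ran from -0.142 to 0.545, and those of ND replicates 2, 3 and 4 lay below 0. Each set with an Input was fitted with these pairs as an alternative. The labels do not state the pairing. It comes from the data in the n_ZFP sets and was assumed by number in hSyn. All 6 members are described. From each pathway list, up to 2 genes in each direction with the largest change past the threshold in an IP, at 5 CPM or more, are named, and for each member the 3 genes with the most similar pattern, passing over predicted and sex-linked genes (0.5 CPM added before log2). The members and lists were chosen with earlier results of these data known. Single values of some genes in the pathway lists are not reported here.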

Additional observations from a re-analysis of the deposited data

Results flagged for a closer look

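Single libraries far from the rest of their group were searched for in 144 combinations of member and group with 4 or more libraries, and 5 were found, where chance gives about 1 in 20. In the n_ZFP_a_Rpl IP of RZ, Grm5 was 1139 CPM in replicate 2 and 975 to 999 CPM in the others. In the hSyn IP of RZ, Grm8 was 16.5 CPM in replicate 2 and 12.6 to 13.2 CPM in the others. In n_ZFP_n_Rpl, Grm3 was 211 CPM in NZ replicate 4 of the IP against 184 to 186 CPM, and 134.5 CPM in RZ replicate 4 of the Input against 156 to 159 CPM. Grm8 was 20.5 CPM in RD replicate 3 of the n_ZFP_n_Rpl Input against 22.3 to 22.5 CPM.

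Of 30 tests of a difference between differences, 8 passed. Of all genes tested, 16.5% passed the interaction in the n_ZFP_a_Rpl IP, 13.1% in the n_ZFP_n_Rpl IP and 0% in the MG and hSyn IPs. In the test of neuron less astrocyte IPs 20.7% passed. The pooled count is therefore no result about the members. The dependence of the ZFP difference on genotype was 0.94 for Grm4, 0.61 for Grm5 and 0.51 for Grm8 in the n_ZFP_a_Rpl IP, and 0.65 for Grm3, 0.62 for Grm4 and 0.48 for Grm5 in the n_ZFP_n_Rpl IP, on the log2 scale. The R6/2 difference in neuron IPs less that in astrocyte IPs was -0.42 for Grm3 and 0.51 for Grm7. Grm7 was called higher in R6/2 in both neuron IPs, and its values in both astrocyte IPs were negative and did not pass.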

How the results depend on the processing

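Over the alternatives, 4212 values were computed for the members' tests. Of the 2071 that belong to a called member, 1988 kept the direction and the call, 83 kept the direction and lost the call, and none turned. The calls for Grm3, Grm4 and Grm5 in the neuron IPs, RD against ND, for Grm7 in the neuron IPs and for Grm3 and Grm7 between cell types held in each alternative run. Sign changes occurred among values that were not called. Of the 168 mean levels of a member in a group, 36 moved by at least the SD of the group when CPM were taken without TMM factors, and 132 did not.

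With the replicate number as a block the log2 value was 0.0014 for Grm8 RZ against RD, hSyn IP, 0.25 for Grm2 NZ against ND, hSyn IP, -0.030 for Grm2 the interaction, hSyn IP, 0.065 for Grm2 RZ against RD, n_ZFP_n_Rpl Input and -0.0078 for Grm8 IP against Input, hSyn. With the cortical marker covariate the log2 value was -0.013 for Grm2 the interaction, n_ZFP_n_Rpl IP, 0.0066 for Grm2 RZ against RD, n_ZFP_n_Rpl Input and -0.014 for Grm8 IP against Input, n_ZFP_n_Rpl. In ND libraries alone the log2 value was -0.072 for Grm5 IP against Input, n_ZFP_a_Rpl, -0.098 for Grm7 IP against Input, hSyn, -0.041 for Grm8 IP against Input, hSyn, -0.16 for Grm3 IP against Input, n_ZFP_n_Rpl and -0.024 for Grm8 IP against Input, n_ZFP_n_Rpl. With DESeq2 it was -0.0070 for Grm3 IP against Input, n_ZFP_n_Rpl. With RLE factors it was -0.0076 for Grm3 IP against Input, n_ZFP_n_Rpl.

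With the replicate number as a block, calls became 6 from 12 (RZ against RD, MG IP), 3 from 1081 (NZ against ND, MG IP), 0 from 2 (members in NZ against ND, MG IP), 1 from 6 (RZ against RD, hSyn IP), 1 from 2 (members in RZ against RD, n_ZFP_n_Rpl Input), 6999 from 11154 (Neuron less astrocyte IP, ND level). With the cortical marker covariate, calls became 1049 from 525 (RZ against RD, n_ZFP_n_Rpl Input), 4 from 2 (members in RZ against RD, n_ZFP_n_Rpl Input). In ND libraries alone, calls became 2 from 4 (members in IP against Input, hSyn). With DESeq2, calls became 356 from 12 (RZ against RD, MG IP), 2219 from 1081 (NZ against ND, MG IP), 52 from 0 (the interaction, MG IP), 873 from 316 (NZ against ND, n_ZFP_a_Rpl IP), 25 from 6 (RZ against RD, hSyn IP), 10 from 4 (NZ against ND, hSyn IP), 6 from 0 (the interaction, hSyn IP), 5 from 0 (RZ against RD, hSyn Input), 1748 from 1113 (NZ against ND, n_ZFP_n_Rpl IP), 879 from 525 (RZ against RD, n_ZFP_n_Rpl Input). With no filter, calls became 1 from 0 (the interaction, MG IP). With only the groups compared, calls became 1 from 12 (RZ against RD, MG IP), 1 from 2 (members in NZ against ND, MG IP), 146 from 316 (NZ against ND, n_ZFP_a_Rpl IP), 10 from 6 (RZ against RD, hSyn IP), 2 from 4 (NZ against ND, hSyn IP), 1 from 0 (RZ against RD, hSyn Input), 241 from 1113 (NZ against ND, n_ZFP_n_Rpl IP).

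Leaving out each library, calls ran from the lowest to the highest count as 5 to 2043 (RZ against RD, MG IP, without RD replicate 2 and RZ replicate 1), 19 to 2069 (NZ against ND, MG IP, without ND replicate 2 and RZ replicate 1), 0 to 2 (members in NZ against ND, MG IP), 0 to 3 (the interaction, MG IP), 151 to 641 (NZ against ND, n_ZFP_a_Rpl IP, without NZ replicate 4 and NZ replicate 3), 1677 to 2573 (RZ against RD, n_ZFP_a_Rpl Input, without RD replicate 2 and ND replicate 1), 0 to 14 (RZ against RD, hSyn IP, without RD replicate 1 and NZ replicate 1), 0 to 1 (the interaction, hSyn IP), 0 to 1 (RZ against RD, hSyn Input), 524 to 1313 (NZ against ND, n_ZFP_n_Rpl IP, without NZ replicate 2 and ND replicate 1), 216 to 666 (RZ against RD, n_ZFP_n_Rpl Input, without RZ replicate 2 and ND replicate 1), 1 to 4 (members in RZ against RD, n_ZFP_n_Rpl Input). Log2 values that were not called changed sign, running from -0.36 to 0.063 (Grm2 NZ against ND, hSyn IP), -0.77 to 0.0096 (Grm2 RD against ND, n_ZFP_n_Rpl Input), -0.13 to 0.19 (Grm2 RZ against RD, hSyn Input), -0.19 to 0.15 (Grm2 RZ against RD, n_ZFP_n_Rpl Input), -0.076 to 0.35 (Grm2 interaction, MG IP), -0.13 to 0.16 (Grm2 interaction, n_ZFP_a_Rpl IP), -0.20 to 0.41 (Grm2 interaction, n_ZFP_n_Rpl IP), -0.013 to 0.027 (Grm3 IP against Input, n_ZFP_n_Rpl), -0.30 to 0.020 (Grm3 NZ against ND, MG IP), -0.022 to 0.073 (Grm3 NZ against ND, n_ZFP_a_Rpl IP), -0.059 to 0.013 (Grm3 NZ against ND, n_ZFP_n_Rpl IP), -0.071 to 0.0098 (Grm3 RZ against RD, hSyn Input), -0.31 to 0.053 (Grm3 interaction, MG IP), -0.072 to 0.064 (Grm4 NZ against ND, hSyn IP), -0.041 to 0.14 (Grm4 NZ against ND, n_ZFP_a_Rpl IP), -0.16 to 0.015 (Grm5 RZ against RD, MG IP), -0.050 to 0.099 (Grm7 NZ against ND, hSyn IP), -0.0090 to 0.070 (Grm7 NZ against ND, n_ZFP_a_Rpl IP), -0.093 to 0.079 (Grm7 RZ against RD, MG IP), -0.011 to 0.051 (Grm8 IP against Input, hSyn), -0.016 to 0.054 (Grm8 IP against Input, n_ZFP_n_Rpl), -0.15 to 0.035 (Grm8 NZ against ND, n_ZFP_a_Rpl IP), -0.19 to 0.10 (Grm8 NZ against ND, n_ZFP_n_Rpl IP), -0.19 to 0.0097 (Grm8 RD against ND, hSyn IP), -0.085 to 0.15 (Grm8 RZ against RD, MG IP), -0.16 to 0.042 (Grm8 RZ against RD, hSyn IP).

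The condition numbers did not pair the libraries: of 17, 11, 20 and 24 same-numbered pairs in hSyn, MG, n_ZFP_a_Rpl and n_ZFP_n_Rpl, 4, 4, 2 and 9 correlated above 0.1. Beside the changes given, the block ended the calls of Grm5 and Grm7 for NZ against ND in MG (adjusted p = 0.231 and 0.207), of Grm8 for the interaction in the n_ZFP_a_Rpl IP (0.0602), of Grm5 for RZ against RD in the n_ZFP_n_Rpl Input (0.0667) and of Grm4 for the ND level between cell types (0.40, 0.0577). It brought past the threshold Grm7 for RD against ND in the hSyn Input (0.31, adjusted p = 0.0288) and, in the n_ZFP_n_Rpl IP, for RZ against RD (-0.13, adjusted p = 0.0346). The causes of these changes were not tested. Depth limits Grm2 most, with 15 to 198 counts per library outside n_ZFP_n_Rpl, against at least 475 for any other member.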
